A study of Mus musculus with 16 samples.

Results

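The 10 genes described here respond to or restrain signalling through the kinase ERK and were read out of RNA-seq of mouse embryonic stem cells. They are the phosphatases Dusp4 and Dusp6, the pathway inhibitors Spry2, Spry4 and Spred1, the ETS-family transcription factors Etv4 and Etv5, and the immediate-early genes Egr1, Ier3 and Ier2. They were chosen by name, through the Ensembl identifier of each symbol, and all 10 were found among the 41258 entries of the FPKM table (fragments mapped to a gene, scaled to its transcript length and to the library's mapped fragments). A gene was tested when 2 or more libraries reached 1 FPKM, which held for all 10 and for 13172 entries in total. Egr1 passed through the wild-type 48 h libraries alone, so a difference involving that group was built into its passing.

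The 4 groups held 2 libraries each and were Dgcr8-/- cells (line ES1) at 48 h of differentiation, Dgcr8-/- cells in 2iL, wild-type cells (line v65) at 48 h, and wild-type cells in 2iL. All cells had a 129/C57BL/6 background and were labelled as passages 9 to 11. 2iL is a medium with a MEK inhibitor, a GSK3 inhibitor and the cytokine LIF, and the medium at 48 h was N2B27 with bFGF and KSR. The Dgcr8 protein binds primary miRNA transcripts and is needed by the nuclease Drosha to cut most of them, and cells without it are known to lack most mature miRNAs. There was 1 line per genotype, so every difference between genotypes is a difference between lines as well, and nothing in the labels says whether the libraries of a group came from separate cultures, so p-values measure the spread between these libraries, which may be technical.

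ERK is the last kinase of the cascade that runs from growth factor receptors through RAS, RAF and MEK. Active ERK induces immediate-early genes and ETS factors within a short time, and it also induces its own inhibitors, which act at the receptor and RAS level (Sprouty and Spred proteins) or remove phosphate from ERK itself (dual-specificity phosphatases). In mouse embryonic stem cells FGF4 is the main source of ERK activity, ERK signalling is needed to leave the naive state, and the MEK inhibitor of 2iL blocks the cascade just above ERK. The levels of these transcripts are therefore often used as a readout of the pathway. ERK phosphorylation itself was not analysed here.

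The libraries were compared through their FPKM values only, and every knockout library had a lower FPKM sum than every wild-type library. FPKM values summed to 475271 to 548453 per library, 11415 to 12030 entries reached 1 FPKM, and the log2(FPKM + 1) values of replicate libraries had correlations of 0.987 to 0.991 across genes. The number of reads per library is not given in the sources used here, but low FPKM values differed between libraries by whole-read steps, which gives their relative depth. Set against the shallowest library, it was 1.23 and 1.24 in knockout cells at 48 h, 1 and 1.11 in knockout cells in 2iL, 1.22 and 1.48 in wild-type cells at 48 h, and 1.11 and 1.05 in wild-type cells in 2iL, so the 48 h libraries were the deeper ones. Dgcr8 had 7.84 and 7.80 FPKM in knockout cells at 48 h, 9.11 and 9.33 FPKM in knockout cells in 2iL, 20.7 and 20.9 FPKM in wild-type cells at 48 h, and 18.3 and 19.2 FPKM in wild-type cells in 2iL, lower in every knockout library, with a remaining signal whose exons cannot be told from gene-level values. Summed naive markers (Nanog, Esrrb, Zfp42, Tfcp2l1, Klf4 and Prdm14, 6 of 6 tested) came to 235 to 243 FPKM in knockout cells at 48 h, 742 to 786 FPKM in knockout cells in 2iL, 31.7 to 32.2 FPKM in wild-type cells at 48 h and 681 to 694 FPKM in wild-type cells in 2iL. The knockout cells at 48 h thus held more naive marker RNA than the wild-type cells at 48 h, and the part of this in the differences below was not tested. Of 10 fibroblast and feeder markers 4 passed the filter (Thy1, Tagln, Dcn and Acta2). Tagln and Acta2 passed through the wild-type 48 h libraries alone, so their differences from that group were built into their passing. Their list summed to 19.1 to 19.2 FPKM in knockout cells at 48 h against 2.29 to 2.35 FPKM in 2iL, and to 22.9 to 23.8 FPKM in wild-type cells at 48 h against 2.94 to 3.16 FPKM in 2iL, while Col1a1 stayed at or below 0.154 FPKM and Postn was listed at 0 in all libraries but one. At 48 h Dcn was higher in the knockout (11.9 and 12.6 FPKM, against 2.22 and 1.74 FPKM in wild-type cells), and the other 3 were lower: Tagln had 0.902 and 0.928 FPKM against 9.02 and 9.38 FPKM, Thy1 had 5.84 and 5.35 FPKM against 9.20 and 9.26 FPKM, and Acta2 was listed at 0 against 2.58 and 1.93 FPKM. The part of these genes in the results was not tested. In bulk RNA, fewer cells of a type and less RNA per cell cannot be told apart.

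Promoter sequences of 5 of the 10 genes were at hand (RefSeq, build GRCm38.p6, 250 bases before to 50 bases after the annotated start). Those of 4 genes are printed because they stand for the patterns described below: Dusp6 and Spred1 rose in both genotypes, Spry2 was level in both, and Ier3 moved in opposite directions. Both strands were searched for the ETS core CCGGAA, the AP-1 site TGANTCA, the cAMP response core TGACGT and the CArG box bound by serum response factor, and capitals mark a match. Each sequence reads 5′ to 3′ on the gene's strand. They lie at chr10:99262981-99263280 (Dusp6, plus strand), chr2:117120821-117121120 (Spred1, plus strand), chr14:105896770-105897069 (Spry2, minus strand) and chr17:35821463-35821762 (Ier3, plus strand).
Dusp6: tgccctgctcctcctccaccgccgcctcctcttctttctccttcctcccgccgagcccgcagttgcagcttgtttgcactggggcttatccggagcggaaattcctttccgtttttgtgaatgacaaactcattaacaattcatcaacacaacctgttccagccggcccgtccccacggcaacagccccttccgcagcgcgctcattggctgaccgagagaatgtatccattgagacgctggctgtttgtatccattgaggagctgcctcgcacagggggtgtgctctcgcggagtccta
Spred1: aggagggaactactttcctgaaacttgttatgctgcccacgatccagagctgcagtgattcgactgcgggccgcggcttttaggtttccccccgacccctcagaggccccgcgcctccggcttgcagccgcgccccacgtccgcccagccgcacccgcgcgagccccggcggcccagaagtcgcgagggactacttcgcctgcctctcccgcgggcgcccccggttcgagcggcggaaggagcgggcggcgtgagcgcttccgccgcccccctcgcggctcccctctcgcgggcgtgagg
Spry2: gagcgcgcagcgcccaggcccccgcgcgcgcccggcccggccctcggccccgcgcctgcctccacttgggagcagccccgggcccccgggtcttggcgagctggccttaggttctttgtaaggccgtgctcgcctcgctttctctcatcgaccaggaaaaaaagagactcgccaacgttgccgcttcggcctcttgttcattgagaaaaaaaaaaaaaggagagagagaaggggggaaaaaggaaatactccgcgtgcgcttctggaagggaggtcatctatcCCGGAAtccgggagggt
Ier3: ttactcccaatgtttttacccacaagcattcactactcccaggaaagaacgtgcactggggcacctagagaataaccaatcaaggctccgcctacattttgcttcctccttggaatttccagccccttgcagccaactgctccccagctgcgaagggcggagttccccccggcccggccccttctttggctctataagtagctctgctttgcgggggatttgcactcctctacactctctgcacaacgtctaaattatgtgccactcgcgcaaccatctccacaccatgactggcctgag

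The only match in these windows was the ETS core of Spry2, at bases 34 to 39 counted from the annotated start as 1. No match was found in the windows of Dusp6, Spred1, Ier3 or Etv5, which says only that these letters are not in these windows. Of all 32851 promoter windows of the same length, 14.9% held the ETS core, 7.81% the AP-1 site, 7.51% the cAMP response core and 1.63% the CArG box. The GC content was 57.3% for Dusp6, 72.3% for Spred1, 62.7% for Spry2 and 54.0% for Ier3, against a median of 52.7% over all windows.

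**Figure D1:**
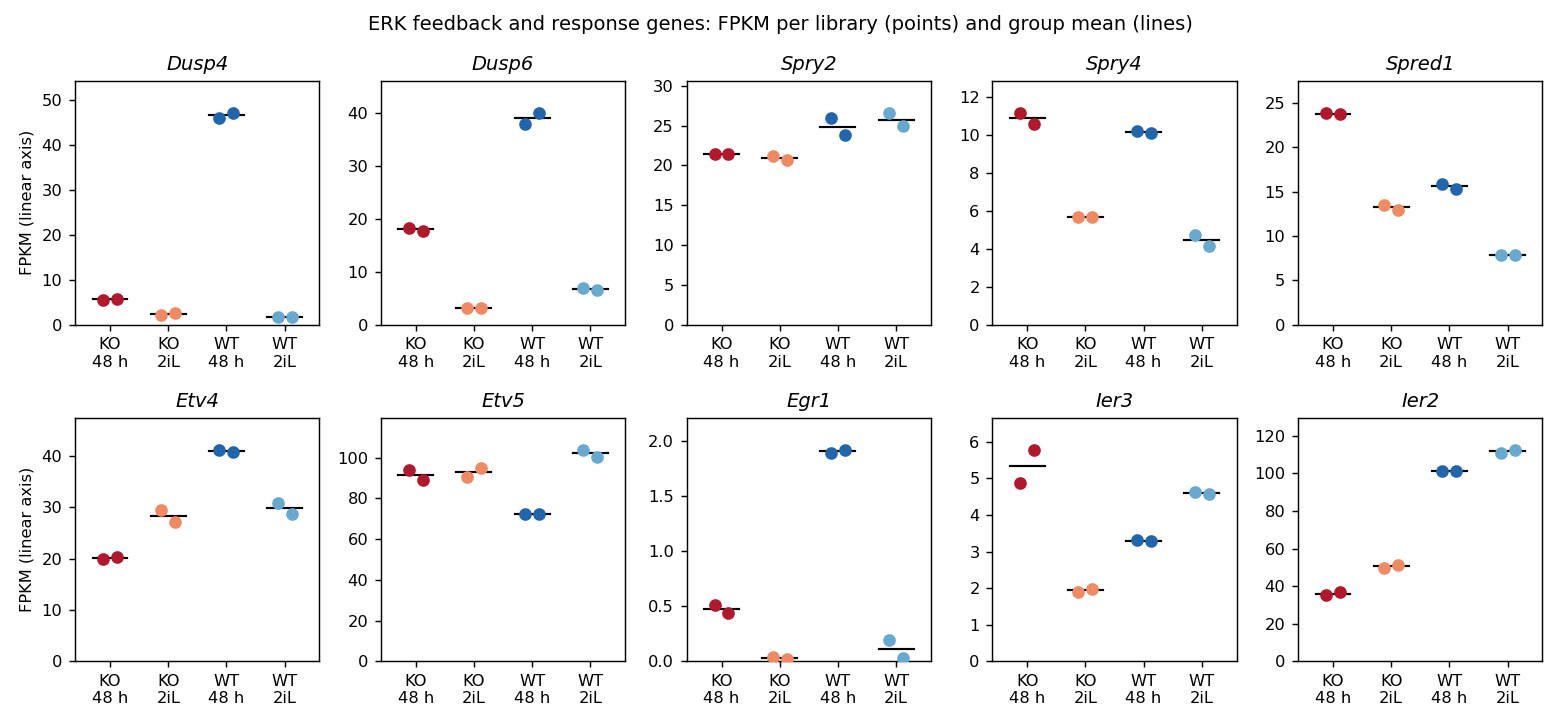
FPKM of each of the 10 genes (vertical axes, linear, from 0) in each library, with points for the 2 libraries of a group and a line at their mean, for Dgcr8 knockout (KO) and wild-type (WT) cells at 48 h and in 2iL. Dusp4 stands out in wild-type cells at 48 h (45.9 and 47.1 FPKM, against 5.44 and 5.82 FPKM in knockout cells at 48 h), while Spry2 lies between 20.6 and 26.6 FPKM in all libraries.

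The first question was what these genes did when cells left 2iL. In knockout cells 8 of 10 were called at 48 h, 6 higher and 2 lower, where 48.3% of all tested genes were called (26.5% higher and 21.8% lower). In wild-type cells 9 of 10 were called, 6 higher and 3 lower, where 56.5% of all tested genes were called (30.9% higher and 25.6% lower). A gene was called when its limma p-value, adjusted over all 13172 tested genes, was below 0.05. On the log2(FPKM + 1) scale the median change of the 10 genes was 0.66 in knockout cells and 0.68 in wild-type cells, against 0.03 over all tested genes in either genotype. Dusp4, Dusp6, Spry4, Spred1 and Egr1 rose in both genotypes, Ier2 fell in both, Spry2 was not called in either, and Etv4, Etv5 and Ier3 took different courses in the 2 genotypes. The wild-type count includes Egr1, whose rise there was built into its passing the filter.

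Among the phosphatases, Dusp6, a mostly cytoplasmic enzyme selective for ERK, lies on chromosome 10 (99263231 to 99267489, GRCm38.p6). It had 18.3 and 17.7 FPKM in knockout cells at 48 h against 3.17 and 3.23 FPKM in knockout cells in 2iL. In wild-type cells it had 37.9 and 39.98 FPKM at 48 h against 6.93 and 6.50 FPKM in 2iL. No libraries overlapped between any pair of groups, and in each condition the knockout libraries were the lower ones. The log2 change was 2.18 (SE 0.06, adjusted p = 8.54e-07) in knockout cells and 2.37 (SE 0.06, adjusted p = 1.92e-07) in wild-type cells. In FPKM the mean at 48 h stood 5.62-fold above that in 2iL in knockout cells and 5.80-fold above it in wild-type cells. The difference between these 2 changes was −0.20 (95% interval −0.40 to 0.01, adjusted p = 0.106) and was not called. This does not show that the changes were alike. The level was called lower in the knockout in both conditions. The knockout mean was 0.462 times the wild-type mean at 48 h (log2 −1.07, adjusted p = 4.37e-06) and 0.477 times the wild-type mean in 2iL (log2 −0.88, adjusted p = 2.01e-05).

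Dusp4, an inducible nuclear phosphatase that acts on ERK and related kinases, is encoded on chromosome 8 (34807610 to 34819894). It had 5.44 and 5.82 FPKM in knockout cells at 48 h against 2.06 and 2.55 FPKM in knockout cells in 2iL. In wild-type cells it had 45.9 and 47.1 FPKM at 48 h against 1.71 and 1.80 FPKM in 2iL. The wild-type libraries at 48 h were thus far above all others, and the 2iL libraries of both genotypes were low. The log2 change was 1.01 (SE 0.09, adjusted p = 9.13e-05) in knockout cells and 4.11 (SE 0.09, adjusted p = 1.08e-07) in wild-type cells. In FPKM the mean at 48 h stood 2.44-fold above 2iL in knockout cells and 26.5-fold above it in wild-type cells. The difference between the changes was −3.10 (95% interval −3.39 to −2.81, adjusted p = 5.88e-06), the largest of the 10 genes in size. At 48 h the knockout mean was 0.121 times the wild-type mean (log2 −2.84, SE 0.09, adjusted p = 3.52e-07). In 2iL the knockout was slightly higher (0.26, adjusted p = 0.0351). That small call ended without knockout 2iL replicate 2 (adjusted p = 0.161), wild-type 2iL replicates 1 (0.12) or 2 (0.0726), or wild-type 48 h replicates 1 (0.0645) or 2 (0.0647), all as adjusted p, and with no expression filter (adjusted p = 0.0608) or quantile normalization (adjusted p = 0.283). In wild-type cells Dusp4 passed from below Dusp6 in 2iL to above it at 48 h on the FPKM scale, while in knockout cells Dusp6 was the higher of the pair in both conditions.

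**Figure D2:**
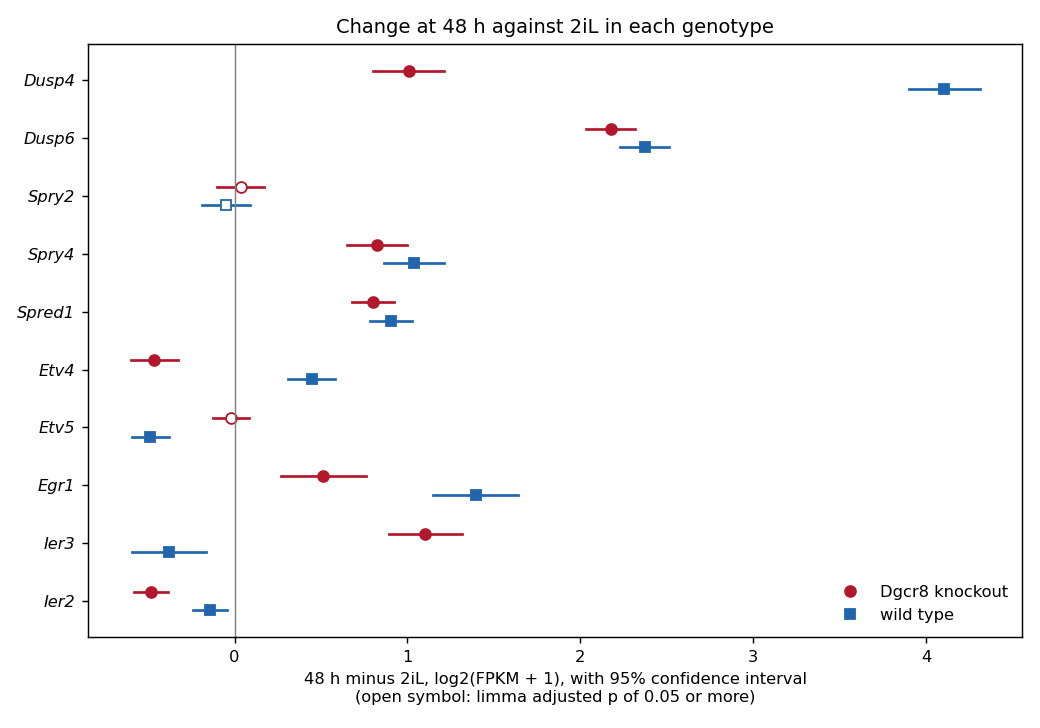
Log2(FPKM + 1) difference of 48 h minus 2iL for each gene (horizontal axis) in Dgcr8 knockout and wild-type cells, with the 95% confidence interval from limma as bars and open symbols where the adjusted p was 0.05 or more. Dusp6, Spry4 and Spred1 have neighbouring values in both genotypes, whereas Dusp4 lies at 1.01 in knockout and 4.11 in wild type and Ier3 at 1.10 and −0.38.

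Of the inhibitors that act near the receptor and RAS, Spry4 and Spred1 rose in both genotypes and Spry2 was not called in either. Spry4, a Sprouty protein that restrains receptor tyrosine kinase signalling, had 11.2 and 10.6 FPKM in knockout cells at 48 h against 5.69 and 5.70 FPKM in 2iL. In wild-type cells it had 10.2 and 10.1 FPKM at 48 h against 4.74 and 4.14 FPKM in 2iL. The 48 h libraries were the higher ones in both genotypes. The log2 change was 0.82 (SE 0.07, adjusted p = 0.000112) in knockout cells and 1.04 (SE 0.07, adjusted p = 2.25e-05) in wild-type cells. The difference between the changes was −0.21 (95% interval −0.46 to 0.04, adjusted p = 0.147). The genotypes were not separated by the test at 48 h (0.09, 95% interval −0.09 to 0.27, adjusted p = 0.31), and in 2iL the knockout was higher by 0.30 (adjusted p = 0.00941), a call lost with quantile normalization (0.15, adjusted p = 0.112).

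Spred1, which brings the RAS-inactivating protein neurofibromin to the membrane, lies on chromosome 2 (117121071 to 117182279). It had 23.9 and 23.7 FPKM in knockout cells at 48 h against 13.5 and 13.0 FPKM in 2iL, and 15.9 and 15.3 FPKM in wild-type cells at 48 h against 7.91 and 7.82 FPKM in 2iL. Each group was separate from every other, and in each condition the knockout libraries were the higher ones. The log2 change was 0.80 (SE 0.05, adjusted p = 2.27e-05) in knockout cells and 0.91 (SE 0.05, adjusted p = 7.52e-06) in wild-type cells, and the difference between them was −0.10 (95% interval −0.28 to 0.07, adjusted p = 0.3). Spred1 was the single feedback inhibitor of the 5 that was higher in the knockout at 48 h by the test (0.58, adjusted p = 4.33e-05). In 2iL it was higher too (0.68, adjusted p = 3.07e-05), along with Dusp4 and Spry4.

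Spry2, another Sprouty protein (chromosome 14, 105891947 to 105896819), had 21.4 FPKM in each of the knockout libraries at 48 h against 21.1 and 20.6 FPKM in 2iL. In wild-type cells it had 25.9 and 23.8 FPKM at 48 h against 26.6 and 24.9 FPKM in 2iL. The knockout libraries at 48 h lay just above those in 2iL, the wild-type libraries of both conditions overlapped, and all knockout libraries lay below all wild-type libraries. Neither change was called, with log2 values of 0.04 (95% interval −0.10 to 0.17, adjusted p = 0.643) in knockout cells and −0.05 (95% interval −0.19 to 0.09, adjusted p = 0.498) in wild-type cells. The knockout was lower by a small margin, −0.20 at 48 h (adjusted p = 0.0157) and −0.29 in 2iL (adjusted p = 0.00369). The call at 48 h ended without knockout 48 h replicates 1 (adjusted p = 0.0622) or 2 (adjusted p = 0.0612), without wild-type 48 h replicate 1 (adjusted p = 0.106) and with median-ratio scaling (adjusted p = 0.0636).

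The ETS factors Etv4 and Etv5 are close relatives of the PEA3 group and are induced by FGF signalling in many embryonic tissues. Etv4 (chromosome 11, 101769747 to 101785310) had 20.0 and 20.4 FPKM in knockout cells at 48 h against 29.5 and 27.1 FPKM in 2iL, and 41.3 and 40.8 FPKM in wild-type cells at 48 h against 30.9 and 28.8 FPKM in 2iL. The genotypes overlapped in 2iL and lay on opposite sides of that level at 48 h. Its log2 change was −0.47 (SE 0.06, adjusted p = 0.000531) in knockout cells and 0.45 (SE 0.06, adjusted p = 0.000464) in wild-type cells, a difference of −0.91 (95% interval −1.11 to −0.72, adjusted p = 0.000164). The knockout was therefore lower at 48 h (−0.99, SE 0.06, adjusted p = 5.29e-06, 0.493 times the wild-type mean), while the difference in 2iL was −0.07 (95% interval −0.21 to 0.06, adjusted p = 0.303).

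Etv5 (chromosome 16, 22381313 to 22439570) had 93.8 and 89.3 FPKM in knockout cells at 48 h against 90.6 and 95.1 FPKM in 2iL, and 72.5 FPKM in each of the wild-type libraries at 48 h against 104 and 100.2 FPKM in 2iL. The knockout libraries of both conditions overlapped, and the wild-type libraries at 48 h were the lowest of all. Its log2 change was −0.02 (95% interval −0.13 to 0.08, adjusted p = 0.724) in knockout cells and −0.49 (SE 0.04, adjusted p = 8.09e-05) in wild-type cells, a difference of 0.47 (95% interval 0.32 to 0.62, adjusted p = 0.00111). At 48 h the knockout was higher (0.33, adjusted p = 0.000389, or 0.50 with quantile normalization). In 2iL it was lower by 0.14 on the log2 scale (adjusted p = 0.0325), a call that ended without knockout 2iL replicate 1 (0.116), wild-type 2iL replicates 1 (0.152) or 2 (0.0519) or wild-type 48 h replicates 1 (0.0571) or 2 (0.0572), all as adjusted p, and with median-ratio scaling (0.0879), the replicate block (0.0538) or no intensity trend (0.0796). With quantile normalization this 2iL difference turned to 0.08 (adjusted p = 0.0618). The relatives thus moved apart: in wild-type cells Etv4 rose and Etv5 fell, and in knockout cells Etv4 fell while Etv5 was not called.

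The immediate-early genes did not move as a set. Egr1, a zinc-finger factor induced within minutes of ERK activation in many cell types, was barely detected. It had 0.513 and 0.440 FPKM in knockout cells at 48 h against 0.0420 and 0.0250 FPKM in 2iL, and 1.89 and 1.92 FPKM in wild-type cells at 48 h against 0.189 and 0.0265 FPKM in 2iL. The wild-type libraries at 48 h were the only ones above 1 FPKM, and the 2iL libraries of the genotypes overlapped. On the log2(FPKM + 1) scale, which understates changes of such low values, the change was 0.51 (SE 0.10, adjusted p = 0.00572) in knockout cells and 1.39 (SE 0.10, adjusted p = 2.85e-05) in wild-type cells. The difference between the changes was −0.88 (95% interval −1.23 to −0.53, adjusted p = 0.00294), and it was no longer called with a pseudocount of 0.1 (−1.28, adjusted p = 0.135). That pseudocount put the changes at 2.11 in knockout cells and 3.39 in wild-type cells, and quantile normalization put the knockout change at 0.33 (adjusted p = 0.0407). At 48 h the knockout was lower (−0.98, adjusted p = 0.000112, or −1.80 with the smaller pseudocount), and in 2iL the genotypes were not separated by the test (−0.10, 95% interval −0.34 to 0.15, adjusted p = 0.449).

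Ier3, a gene of cell survival and stress responses, lies on chromosome 17 (35821713 to 35822911). It had 4.87 and 5.78 FPKM in knockout cells at 48 h against 1.89 and 1.98 FPKM in 2iL, and 3.31 and 3.28 FPKM in wild-type cells at 48 h against 4.62 and 4.56 FPKM in 2iL. The knockout libraries were the highest of all at 48 h and the lowest of all in 2iL. Its log2 change was 1.10 (SE 0.09, adjusted p = 6.87e-05) in knockout cells and −0.38 (SE 0.09, adjusted p = 0.00923) in wild-type cells, a difference of 1.48 (95% interval 1.18 to 1.78, adjusted p = 0.000137). The knockout was higher at 48 h (0.55, adjusted p = 0.00102) and lower in 2iL (−0.93, adjusted p = 9.81e-05).

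Ier2, a nuclear protein gene that responds early to growth factors, lies on chromosome 8 (84661331 to 84662852). It had 35.1 and 36.8 FPKM in knockout cells at 48 h against 49.9 and 51.4 FPKM in 2iL, and 101.02 and 101.2 FPKM in wild-type cells at 48 h against 110.6 and 112.7 FPKM in 2iL. All knockout libraries lay below all wild-type libraries. The log2 change was −0.48 (SE 0.04, adjusted p = 8.44e-05) in knockout cells and −0.14 (SE 0.04, adjusted p = 0.0217) in wild-type cells, a difference of −0.34 (95% interval −0.48 to −0.20, adjusted p = 0.00309). The small wild-type call ended without wild-type 48 h replicates 1 (0.0918) or 2 (0.0874) or wild-type 2iL replicates 1 (0.0565) or 2 (0.0966), all as adjusted p, and with quantile normalization (0.201) or no intensity trend (0.0625). The knockout was lower by 1.47 at 48 h (SE 0.04, adjusted p = 2.4e-07, 0.356 times the wild-type mean) and by 1.12 in 2iL (SE 0.04, adjusted p = 2.01e-06, 0.454 times the wild-type mean), each as a log2 difference, which in 2iL was the largest difference between genotypes among the 10 genes. Beside these early response genes, 8 genes of handling stress summed to 617 to 642 FPKM in knockout cells at 48 h, 687 to 740 FPKM in knockout cells in 2iL, 629 to 643 FPKM in wild-type cells at 48 h and 740 to 757 FPKM in wild-type cells in 2iL. The sums hide opposite courses: the small heat shock gene Hspb1 had 327 and 305 FPKM in knockout cells at 48 h against 48.9 and 50.7 FPKM in wild-type cells at 48 h, and Hmox1 had 73.2 and 73.8 FPKM against 160 and 163.8 FPKM in the same groups. Their part in the results was not tested.

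Counted by comparison, the genotypes differed in 9 of 10 genes at 48 h, 3 higher and 6 lower in the knockout, where 71.8% of all tested genes differed (33.3% higher and 38.5% lower). In 2iL 8 of 10 differed, 3 higher and 5 lower, where 63.4% of all tested genes differed (30.6% higher and 32.8% lower). With quantile normalization it was 5 of 10 in 2iL, where 3964 of the 13172 tested genes were called higher and 4441 lower. The median absolute log2 difference of the 10 genes was 0.78 at 48 h, against 0.46 over all tested genes, and 0.30 in 2iL, against 0.37 over all tested genes. The change itself differed between genotypes for 6 of 10 genes, with Etv5 and Ier3 higher and Dusp4, Etv4, Egr1 and Ier2 lower in the knockout, where 42.8% of all tested genes were called. Those comparisons share libraries and are not independent of each other. Egr1 is counted at 48 h and for the change, although its differences from wild-type cells at 48 h were built into its passing the filter.

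**Figure D3:**
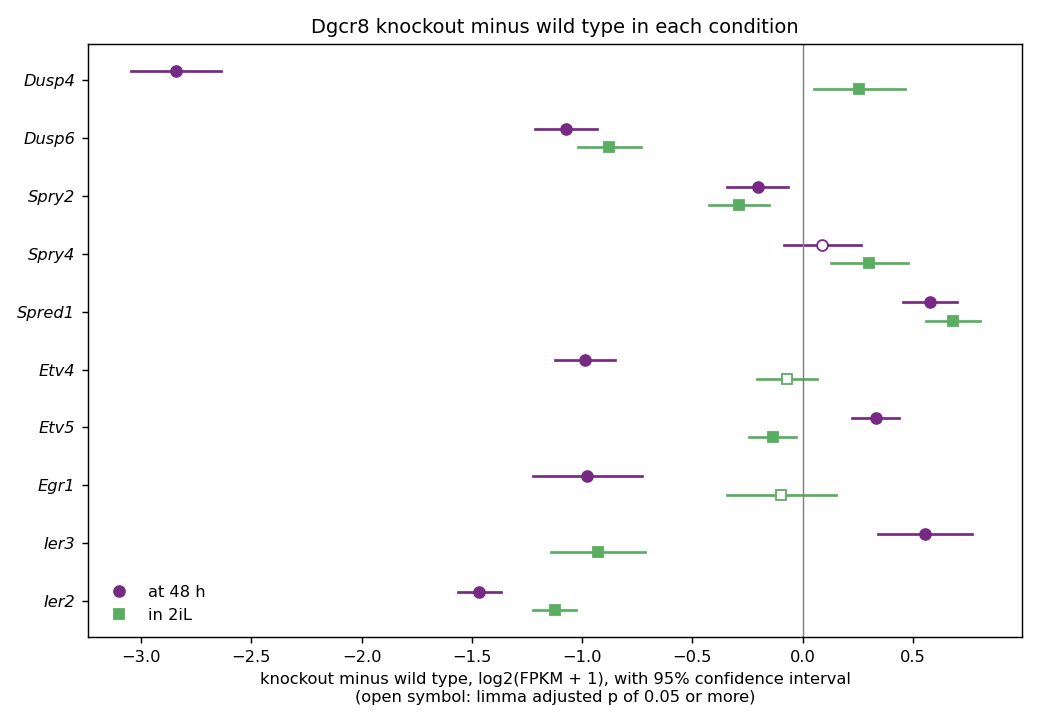
Log2(FPKM + 1) difference of Dgcr8 knockout minus wild type for each gene (horizontal axis), at 48 h and in 2iL, with the 95% confidence interval from limma as bars and open symbols where the adjusted p was 0.05 or more. Dusp6, Spred1 and Ier2 differ in the same direction in both conditions, Dusp4 is at −2.84 at 48 h and 0.26 in 2iL, and Ier3 changes side.

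Within each group the FPKM of the 10 genes spanned a wide range. In knockout cells the order was led by Etv5 and Ier2 in both conditions, and in wild-type cells by Ier2 and Etv5 in both, with Egr1 last in every group. Neighbours in these orders were separated beyond their libraries except Dusp4 and Ier3 in knockout cells at 48 h and Ier3 and Spry4 in wild-type cells in 2iL. Dusp4 changed its place most: it stood below Spry4 and level with Ier3 in knockout cells at 48 h, between Dusp6 and Ier3 in knockout cells in 2iL, between Etv5 and Etv4 in wild-type cells at 48 h, and between Spry4 and Egr1 in wild-type cells in 2iL.

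Other genes of the pathway were read from 3 lists. Of 17 tested negative regulators of the pathway outside the 10 genes, 4 rose and 3 fell in knockout cells by 48 h, while 11 rose and 2 fell in wild-type cells, with median log2 changes of 0.00 and 0.62. Over all tested genes 26.5% rose and 21.8% fell in knockout cells and 30.9% rose and 25.6% fell in wild-type cells, so the knockout counts were near the background. The falls in knockout cells numbered 1 without knockout 48 h replicate 2, and 2 when any of knockout 48 h replicate 1, knockout 2iL replicates 1 and 2 or wild-type 48 h replicates 1 and 2 was left out. With median-ratio scaling or quantile normalization 3 rose and 4 fell in knockout cells. A small rise of 0.14 among the 4 was lost with median-ratio scaling, the replicate block or no intensity trend. It was lost too when any knockout library or any wild-type 48 h library was left out. A small fall of −0.32 was lost with no expression filter. The 48 h change was smaller or more negative in the knockout for 10 of the 17 and larger for 1, where 21.7% and 21.1% of all tested genes were called in these directions. A small difference of −0.25 among these 10 was no longer called with the replicate block. It was also lost when any library except knockout 2iL replicate 1 was left out. Dusp2, a nuclear phosphatase, was counted among the 4 knockout rises, the 11 wild-type rises and the 10 smaller or more negative changes. It passed the expression filter through the wild-type 48 h libraries alone (a mean of 1.60 FPKM). As for Egr1, its differences from that group were thus built into its passing. Its knockout rise lay between means of 0.0792 FPKM in 2iL and 0.439 FPKM at 48 h. The call of that rise was lost with quantile normalization (0.23, adjusted p = 0.0578). Those 10 included Spred3, a Spred1 relative (0.913 FPKM in knockout cells at 48 h and 0.956 FPKM in 2iL, against 13.4 FPKM in wild-type cells at 48 h and 1.69 FPKM in 2iL, as means). They also included the ERK phosphatases Dusp9 (difference between the changes −1.32, adjusted p = 0.000289) and Dusp7 (−1.18, adjusted p = 0.00021) and the receptor inhibitor Errfi1 (−1.16, adjusted p = 0.00257). The exception was Il17rd, the inhibitor also called Sef, at 1.10 (adjusted p = 9.68e-05), which fell in wild-type cells (−1.23, adjusted p = 4.07e-06). Dusp5, a nuclear ERK phosphatase, rose in both genotypes, by 1.32 (adjusted p = 8.25e-05) in knockout cells and 1.67 (adjusted p = 1.65e-05) in wild-type cells. Another of the 11 wild-type rises, of 0.62, belonged to a gene whose means were above 1 FPKM only at 48 h. Its means were 1.67 FPKM in wild-type and 1.06 FPKM in knockout cells at 48 h, against 0.740 and 0.774 FPKM in 2iL. That rise was thus partly set by the expression filter.

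Of 19 tested response genes outside the 10 (6 more, among them Fos and Egr2, did not pass the filter), 7 rose and 4 fell in knockout cells by 48 h and 8 rose and 5 fell in wild-type cells. The falls were near the share over all tested genes (21.8% in knockout cells and 25.6% in wild-type cells), and 26.5% and 30.9% of all tested genes rose. The change differed between genotypes in 8 genes upward and 7 downward, where 21.1% and 21.7% of all tested genes were called. With a pseudocount of 0.1 an upward call (0.56, adjusted p = 0.109) and a downward call (−1.10, adjusted p = 0.0748) were lost. A small upward difference of 0.26 and a small downward difference of −0.30 were lost with the replicate block. The former was also lost with no expression filter or no intensity trend, and the latter with median-ratio scaling or quantile normalization. Jun rose in both, to 12.3 FPKM at 48 h against 1.39 FPKM in 2iL in knockout cells and to 4.60 against 0.828 FPKM in wild-type cells, as means. Srf, the serum response factor that acts at immediate-early promoters, rose in wild-type cells (1.31, adjusted p = 2.74e-06) and its change was smaller in the knockout (difference −1.22, adjusted p = 6.01e-05). Btg2, an antiproliferative early response gene, rose in knockout cells (1.56, adjusted p = 1.27e-06), where the difference between the changes was 1.58 (adjusted p = 9.35e-06). The ETS-family factor Elk3 fell in wild-type cells (−1.52, adjusted p = 6.62e-06) and had a difference of 1.58 (adjusted p = 7.89e-05). Of 23 cascade components 8 rose and 5 fell in knockout cells and 11 rose and 4 fell in wild-type cells, where the shares over all tested genes were 26.5% and 21.8% in knockout cells and 30.9% and 25.6% in wild-type cells. Of these components only the receptor gene Fgfr2 changed by at least 1 on the log2 scale in either genotype, by 1.96 (adjusted p = 0.000285) in knockout cells and 1.54 (adjusted p = 0.000665) in wild-type cells. The change differed between genotypes in 5 components upward and 9 downward, against 21.1% and 21.7% of all tested genes. Some of the upward calls were lost under alternatives. Rps6ka2 rose in wild-type cells (0.96, adjusted p = 1.33e-05) and fell in knockout cells (−0.59, adjusted p = 0.000228). Its difference between the changes was −1.55 (adjusted p = 2.14e-05), the largest in size among these components.

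**Figure D4:**
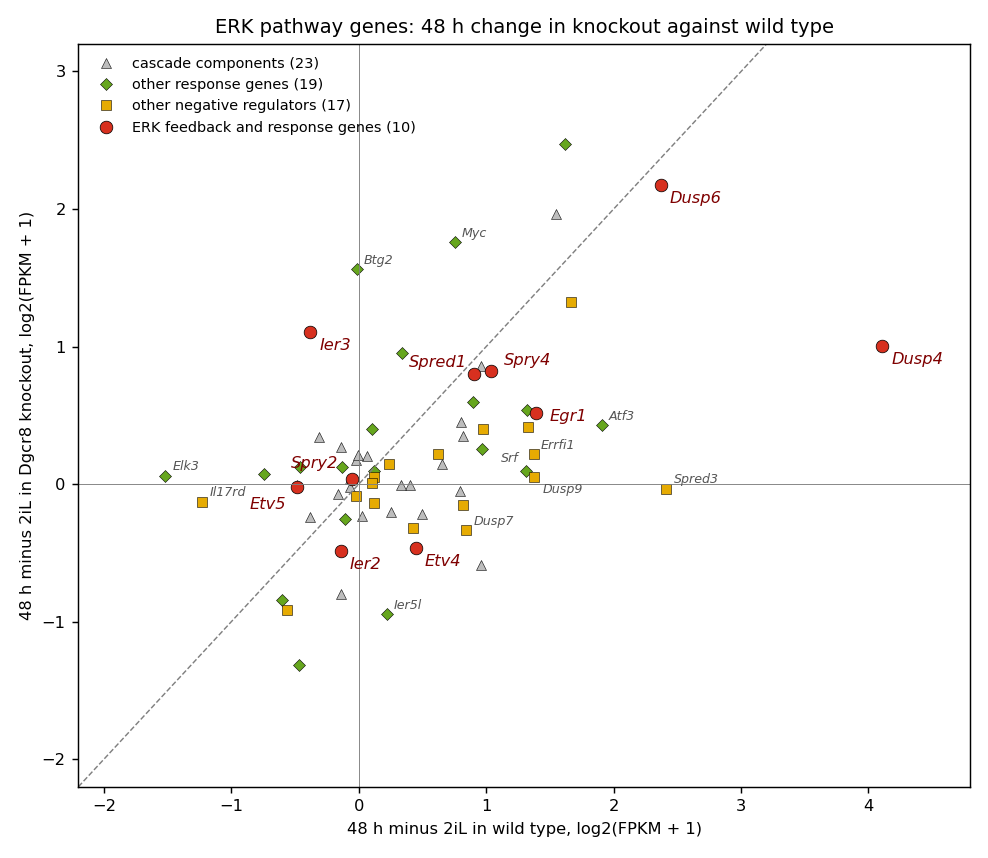
Log2(FPKM + 1) change of 48 h minus 2iL in Dgcr8 knockout cells (vertical axis) against that in wild-type cells (horizontal axis) for the 10 genes and for the tested genes of the 3 pathway lists, with the dashed line marking equal changes. Dusp4 lies at 4.11 on the wild-type axis and 1.01 on the knockout axis, and Spred3, Dusp9 and Dusp7 lie below the dashed line as well.

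The genes whose pattern over the 8 libraries was most like that of a member were found by the root mean square difference of log2(FPKM + 1) values centred per gene, which is given in brackets, and are named as a description. For Dusp4 they were Flnc (0.19), Zyx (0.22) and Mapk12 (0.28), and for Dusp6 they were Foxi3 (0.12), Sall2 (0.15) and Dnmt3b (0.20). Spry2 was nearest to Klhl12, Strap and Haus2 and Spry4 to Unkl, Setbp1 and Trp53bp1. For Spred1 they were Abhd5, Ermp1 and the response gene Trib1, for Etv4 Bcl2l2, Cbl and Stx1a, and for Etv5 Tut1, Vat1 and Mcm3. Egr1 was nearest to Lin28b, Snx33 and Iglon5, Ier3 to Hmgxb4, Kcnh3 and Ltbp4, and Ier2 to Atp6v1c1, Mrpl12 and Tm7sf2. Like Egr1, Snx33 and Iglon5 had means below 1 FPKM in every group but wild-type cells at 48 h. Their likeness to Egr1 is thus partly set by the expression filter. Zyx, which encodes the focal adhesion protein zyxin, had 7.35 FPKM in knockout cells at 48 h and 3.09 FPKM in 2iL, against 41.9 FPKM in wild-type cells at 48 h and 2.58 FPKM in 2iL, as means.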

How the data were processed

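PolyA RNA was sequenced in 8 libraries made with the dUTP method, per the labels. The authors deposited FPKM values per Ensembl gene identifier, with STAR 2.5.0, Cufflinks 2.2.1 and mm10 listed in the submitters' processing notes; the sources used here give neither the annotation nor read numbers, and whether strand was used in counting is not given. The 8 small RNA libraries of the series were not used here. Relative depth was taken from the commonest ratio between libraries among genes below 0.1 FPKM in all libraries, which 25.6% to 36.6% of the ratios met within 0.005 on the log2 scale; absolute depth stays unknown. Of 41258 entries (41202 distinct identifiers, repeats kept apart), those at or above 1 FPKM in at least 2 libraries were tested. Values of log2(FPKM + 1) were fitted with limma 3.58.1 in R 4.3.3 (4 group means, intensity trend, 4 residual and 3.11 prior degrees of freedom), with Benjamini-Hochberg adjustment over 13172 genes and a threshold of 0.05; the fit was tested on simulated data. Fold changes on this scale understate changes of low genes. SE is the moderated standard error, with intervals at 95%. The 10 genes and all lists were chosen with earlier results of these data known. From each list, genes called with an absolute log2 difference of at least 1 could be named, otherwise up to the 4 called genes with the largest difference; for each of the 10 genes the 3 nearest in pattern were named. Alternatives were another pseudocount, 2 other filters, 2 scalings, a replicate block, no intensity trend and leaving out each library.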

Additional observations from a re-analysis of the deposited data

Results flagged for a closer look

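For 6 of the 10 genes the 48 h change differed between knockout and wild-type cells by the interaction term of the limma fit (knockout change minus wild-type change, log2(FPKM + 1), 2 libraries per group), where 42.8% of all tested genes were called. Dusp4 had a difference of −3.10 (adjusted p = 5.88e-06), Etv4 of −0.91 (adjusted p = 0.000164), Egr1 of −0.88 (adjusted p = 0.00294, and 0.135 with a pseudocount of 0.1, which leaves 5 genes called) and Ier2 of −0.34 (adjusted p = 0.00309). Ier3 had a difference of 1.48 (adjusted p = 0.000137) and Etv5 of 0.47 (adjusted p = 0.00111). Egr1 passed the expression filter through the wild-type 48 h libraries alone, so its differences from that group were built into its passing. For Dusp6, Spry2, Spry4 and Spred1 the difference was not called, which does not show that the changes were alike. What produced these differences was not tested, and genotype and cell line cannot be told apart.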

How the results depend on the processing

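Over 15 alternatives, 740 values of single genes were recomputed for the 10 genes, of which 712 kept their side of the threshold and, where called, their direction, 27 lost the call and 1 reversed. The reversal was Etv5 in 2iL, knockout minus wild type, at 0.0782 with quantile normalization. The losses concerned small differences of Dusp4, Etv5 and Spry4 in 2iL, Spry2 at 48 h and Ier2 in wild-type cells, and the Egr1 interaction with a pseudocount of 0.1. The number of the 10 genes called in 2iL was 5 with quantile normalization, where 3964 of the 13172 tested genes were called higher and 4441 lower. Among genes with a mean of at least 5 FPKM, 3612 of 8588 tested genes had a called interaction, against 5641 of 13172 otherwise. Egr1 and Ier3 were not tested in that setting. Leaving out 1 library at a time gave 6 to 8 of the 10 genes in 2iL, 8 to 9 at 48 h, 8 to 9 for the wild-type change, 8 for the knockout change and 6 for the interaction; a lone library was assumed to vary like the other groups. Replicate deviations of same-numbered libraries were correlated at −0.153 to 0.180 between groups, so the numbers are not shown to pair libraries; with the replicate block, 5364 genes had a called interaction and 7222 a called wild-type change, against 7440 without it, and of the 10 genes only Etv5 in 2iL lost its call. Only relative depth could be read from the values, so the precision of low values such as Egr1 cannot be given.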
